A study of Homo sapiens with 17 samples.

Results

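The genes described here are 49 genes of mitosis and chromosome segregation, the machinery that takes a cell through division, measured in NKYS cells. They were listed by name and belong to 8 groups by role. A gene was taken as measured where a probe set carried its symbol and no other. Where there were several such probe sets, the brightest on average was used. By this rule 48 of the 49 genes were measured, among 18377 genes on the array. CENPA, the histone variant that marks the centromere, was left out because its probe set also carries the symbol SLC35F6. KIF4A has a near-identical copy, KIF4B, so that its signal may be shared. A probe set's signal was read only against the same probe set on other arrays.

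NKYS is a cultured line from a human NK/T-cell lymphoma. It was grown with interleukin-2, and the kinase JAK3 works at the receptor of that cytokine. RNA of cells electroporated with an siRNA or a plasmid was measured on 17 arrays. JAK3 siRNA was on 2 arrays, with 2 control siRNA arrays for that arm. EZH2 siRNA was on another 2, again with 2 controls of its own. EZH2 is the histone methyltransferase of Polycomb repressive complex 2. A further 6 arrays had a plasmid for full-length EZH2, titled Y244D, Y244A or WT, 1 array had EZH2 with its SET domain deleted, and 2 arrays had vector control. Y244D and Y244A change the same tyrosine to aspartate or to alanine. The cells of all groups keep their own EZH2 gene and all came from 1 line. Whether the arrays of a group stand for separate cultures is not in the labels. P-values therefore cover only the spread between arrays, which may be technical. The number of arrays limits the precision.

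The plasmid arrays form 2 numbered sets, each with a vector array. In set 2 the titles name Y244D, Y244A and WT, while the transfection fields of the same arrays read EZH2 WT, MtCA and Mt2. These arrays are named by their titles, and which construct each had is not settled by the labels. The array titled WT without a number was placed in set 2 because its code ends in 2, and no set number is given for the SET deletion array.

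Signals of the targeted genes followed the siRNA labels. JAK3 signal was 138.1 and 136.7 with JAK3 siRNA against 322.5 and 326.3 with its control, and EZH2 signal was 500.9 and 488.7 with EZH2 siRNA against 926.3 and 690.8 with its control. On the plasmid arrays EZH2 signal was 802.5 to 2221 with the full-length plasmids and 1471 with the SET deletion, against 258.8 and 349.5 with vector. That probe set may also read transcript of the plasmids. Log2 signal was spread more narrowly on the arrays with a plasmid or vector, with an interquartile range of 1.79 to 2.183, than on the siRNA arrays (2.265 to 2.33). Of 15 natural killer markers, 7 lay above the upper quartile on the siRNA arrays, among them NCAM1, NKG7, PRF1 and GZMB. The 15 summed to a signal of 4402 to 7025 on plasmid and vector arrays, against 7521 to 11780 on siRNA arrays.

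Cells enter mitosis when cyclins bind and activate the kinase CDK1. Kinesins and kinetochores then attach chromosomes to the spindle, the spindle checkpoint holds cells until every chromosome is attached, and the anaphase-promoting complex ends mitosis by marking cyclins and securin for destruction. Transcripts of most of these genes are made in G2 and mitosis and are low in resting or G1 cells. The DREAM and MuvB complexes, with B-MYB and FOXM1, bind such promoters at an element called CHR, and the factor NF-Y binds CCAAT boxes near it.

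Promoters of 7 members are shown, though the differences described below are not limited to these genes. KIF15, CCNA2, BUB1 and SPC25 each passed a main test described below, while CCNB1, PLK1 and CDC20 passed none. RefSeq (GRCh38.p14) gave a window of 250 bases before to 50 bases after the gene start for 41 of the 48 measured members. Capitals mark the CHR letters TTTGAA or TTCGAA and the letters CCAAT, each searched on both strands, so that TTCAAA and ATTGG are the same letters on the other strand. The CHR and CCAAT letters can share at most 1 end base. Each sequence runs 5′ to 3′ on the strand of its gene. The windows are KIF15 at chr3:44761544-44761843 (plus strand), CCNA2 at chr4:121823834-121824133 (minus strand), BUB1 at chr2:110678014-110678313 (minus strand) and SPC25 at chr2:168890381-168890680 (minus strand). The other windows are CCNB1 at chr5:69166900-69167199 (plus strand), PLK1 at chr16:23678639-23678938 (plus strand) and CDC20 at chr1:43358731-43359030 (plus strand).
KIF15: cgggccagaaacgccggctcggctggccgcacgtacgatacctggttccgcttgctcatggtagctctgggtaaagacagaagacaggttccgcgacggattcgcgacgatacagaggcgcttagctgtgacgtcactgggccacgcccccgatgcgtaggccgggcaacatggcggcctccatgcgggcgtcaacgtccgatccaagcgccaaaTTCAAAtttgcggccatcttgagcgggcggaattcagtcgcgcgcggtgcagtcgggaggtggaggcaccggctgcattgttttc
CCNA2: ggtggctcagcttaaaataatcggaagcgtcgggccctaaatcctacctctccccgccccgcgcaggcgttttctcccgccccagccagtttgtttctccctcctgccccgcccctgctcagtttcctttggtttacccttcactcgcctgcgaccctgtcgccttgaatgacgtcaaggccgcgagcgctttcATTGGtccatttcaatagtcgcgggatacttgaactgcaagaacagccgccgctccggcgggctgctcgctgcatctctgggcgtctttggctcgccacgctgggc
BUB1: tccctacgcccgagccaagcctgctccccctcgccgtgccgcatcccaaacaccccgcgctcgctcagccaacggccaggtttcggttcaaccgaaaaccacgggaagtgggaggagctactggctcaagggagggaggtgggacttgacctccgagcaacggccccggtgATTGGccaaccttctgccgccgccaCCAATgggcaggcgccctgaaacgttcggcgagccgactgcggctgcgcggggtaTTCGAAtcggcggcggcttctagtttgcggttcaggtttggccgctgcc
SPC25: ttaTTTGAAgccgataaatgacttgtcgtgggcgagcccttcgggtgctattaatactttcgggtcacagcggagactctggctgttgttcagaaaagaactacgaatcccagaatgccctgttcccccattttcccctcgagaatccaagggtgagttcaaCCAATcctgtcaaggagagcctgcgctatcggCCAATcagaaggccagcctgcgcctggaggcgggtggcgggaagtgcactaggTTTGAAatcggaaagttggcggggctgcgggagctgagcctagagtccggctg
CCNB1: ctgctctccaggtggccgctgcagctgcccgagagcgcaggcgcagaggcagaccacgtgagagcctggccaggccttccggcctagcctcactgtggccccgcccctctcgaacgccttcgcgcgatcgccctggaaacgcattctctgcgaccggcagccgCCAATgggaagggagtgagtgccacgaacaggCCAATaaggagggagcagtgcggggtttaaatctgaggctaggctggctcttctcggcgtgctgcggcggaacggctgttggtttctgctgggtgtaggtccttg
PLK1: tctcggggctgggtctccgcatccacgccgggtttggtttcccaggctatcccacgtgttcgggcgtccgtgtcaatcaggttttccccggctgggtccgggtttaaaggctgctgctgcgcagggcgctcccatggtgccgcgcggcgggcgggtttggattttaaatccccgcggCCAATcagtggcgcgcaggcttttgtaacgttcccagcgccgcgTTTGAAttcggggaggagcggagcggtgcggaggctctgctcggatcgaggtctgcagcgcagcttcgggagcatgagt
CDC20: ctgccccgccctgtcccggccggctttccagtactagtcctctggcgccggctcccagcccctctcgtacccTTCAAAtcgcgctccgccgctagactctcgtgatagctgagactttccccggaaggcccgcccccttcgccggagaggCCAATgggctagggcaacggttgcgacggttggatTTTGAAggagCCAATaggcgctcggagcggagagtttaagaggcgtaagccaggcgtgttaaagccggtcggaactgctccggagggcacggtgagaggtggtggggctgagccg

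In the windows above, SPC25 and CCNB1 each held a pair of CCAAT boxes, 88 and 56 bases before the start in SPC25 and 87 and 55 bases before it in CCNB1. SPC25 also held CHR letters at 247 and 3 bases before its start, and CCNB1 held none. BUB1 held CCAAT letters 79 and 54 bases before its start and CHR letters just after it. CDC20 held CCAAT at 100 and 55 bases and CHR at 178 and 65 bases before the start, and PLK1 held CCAAT at 73 and CHR at 29 bases. KIF15 held CHR letters 35 bases before the start and no CCAAT, and CCNA2 held CCAAT 56 bases before it and neither CHR spelling. Over all 41 windows, 32 (78%) held CHR letters, against 13.3% of 14210 promoters of measured genes. CCAAT was in 29 (70.7%) against 36.3%, more than 1 CCAAT in 17 (41.5%) against 12.5%, and both motifs in 23 (56.1%) against 5.44%. These are matches of letters, not measured binding.

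All 48 members had a lower signal on the arrays with a plasmid or vector than on the siRNA arrays. Every one of the 9 plasmid or vector arrays lay below every one of the 8 siRNA arrays in 48 of 48 members, as did 20.5% of all genes tested. Vector arrays minus control siRNA arrays had a median of -2.09 on the log2 scale over the members (range -2.90 to -0.70). Over all genes that median was 0.03. Summed signals of 2 marker lists lay apart between the same arrays without overlap. The 5 epithelial markers summed to 403.1 to 771.1 on plasmid and vector arrays, with KRT18 above the upper quartile, against 322.3 to 378.7 on siRNA arrays. The 5 fibroblast markers summed to 341.8 to 460.5 against 311.2 to 328.1, with 0 of them above the upper quartile. The natural killer sum given above also did not overlap. Few single markers lay apart in this way. Higher on plasmid and vector arrays were 1 of 5 epithelial, 1 of 5 fibroblast, 1 of 15 natural killer and 3 of 6 monocyte and macrophage markers. Lower there were 4 natural killer markers and 1 monocyte and macrophage marker, so that the sums do not stand for whole lists. The part of these markers in the difference was not tested. In bulk RNA, fewer cells of a kind and less RNA per cell cannot be told apart. The interquartile range given above also differed between these arrays, and its part in the difference was not tested. The labels do not say whether the siRNA and plasmid arrays were run together, so that experiment and treatment cannot be told apart here.

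**Figure D1:**
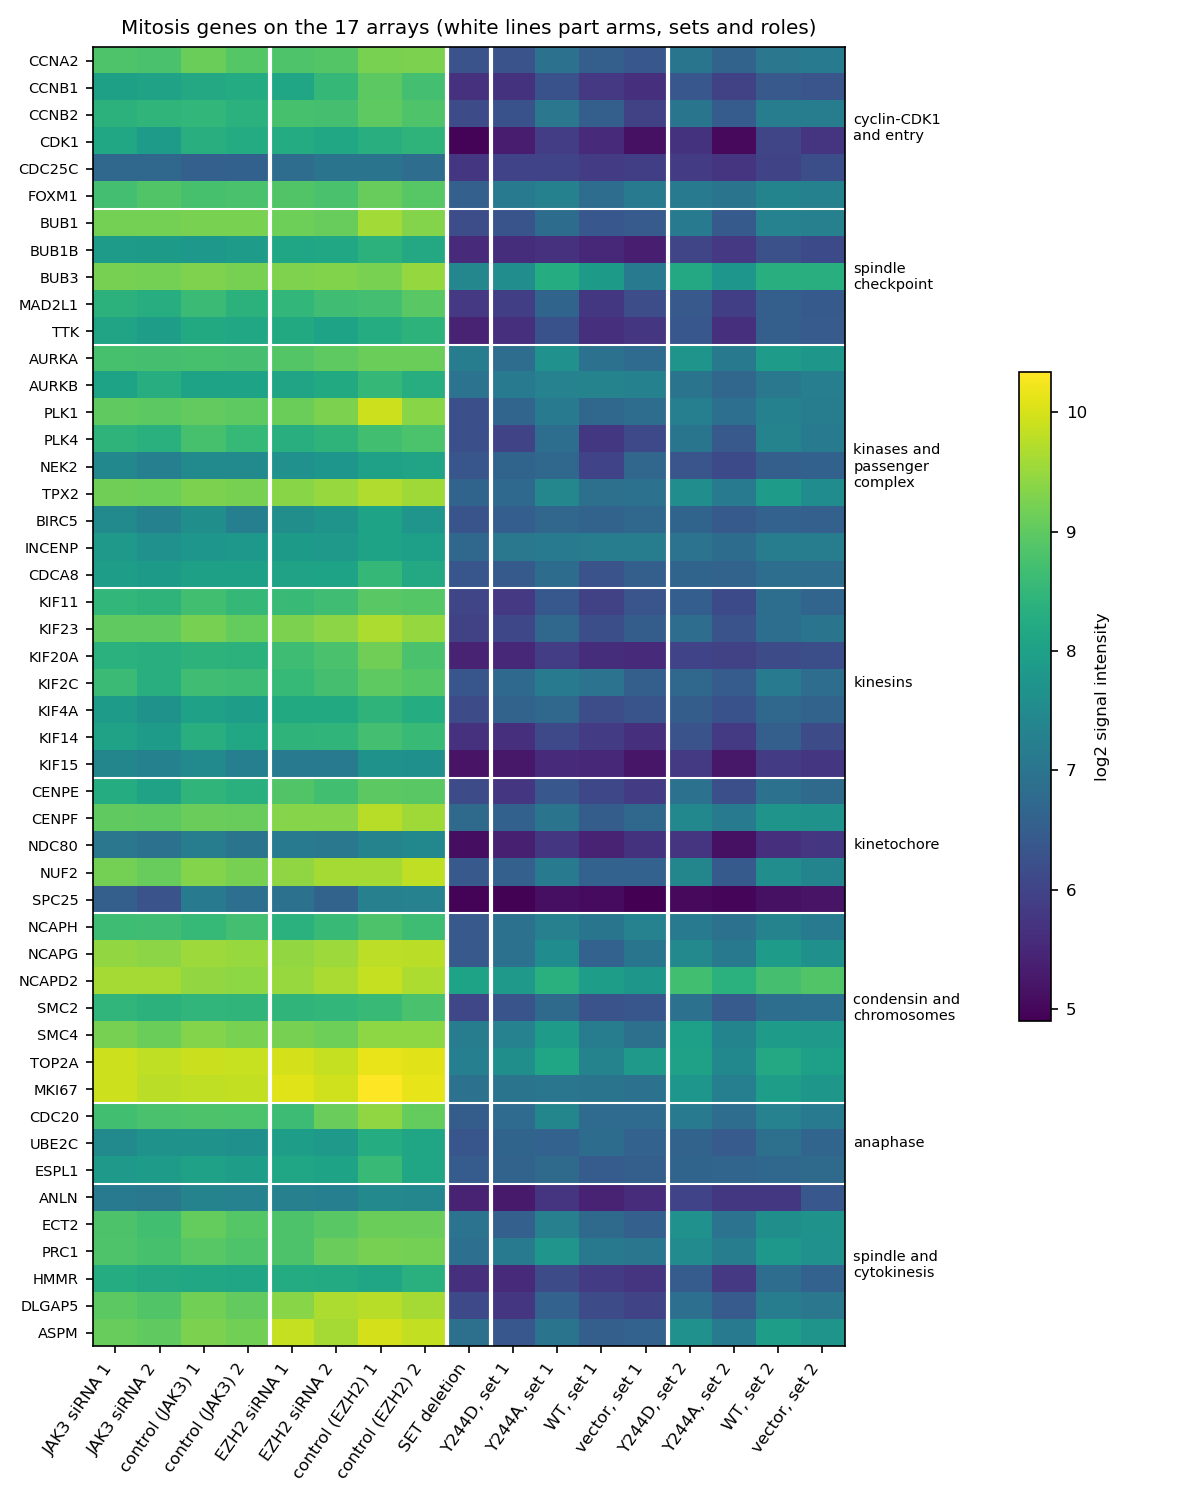
Signal of each measured member (rows, by role) on each of the 17 arrays (columns), with colour for log2 signal intensity, to be compared along a row and not between rows. In each of the 48 rows the 8 siRNA arrays are above the 9 plasmid and vector arrays.

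The difference was present in each role. Among genes of mitotic entry, CCNA2, the cyclin A2 that works in S phase and G2, had 77.9, 98.98 and 138.1 (lowest, median and highest signal) on the plasmid and vector arrays and 435.6, 476.4 and 613.2 on the siRNA arrays. FOXM1, a transcription factor that drives G2 and mitosis genes, had 94.95, 140.7 and 163.8 against 422.6, 451.6 and 539.8. Neither gene had any overlap between these families of arrays. The checkpoint kinase BUB1 had 72.8, 88.2 and 159.0 on plasmid and vector arrays against 539.5, 597.5 and 767.7, and its partner BUB3 had 141.6, 234.2 and 322.3 against 591.1, 616.8 and 712.1. BUB3 thus kept a larger share of its signal than BUB1 did, with vectors minus control siRNA at -1.57 for BUB3 and -2.49 for BUB1.

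Among mitotic kinases and their activators, Aurora A (AURKA) had 111.3, 144.6 and 239.9 on plasmid and vector arrays against 425.4, 453.1 and 558.7 on siRNA arrays. TPX2, which activates Aurora A on the spindle, had 100.5, 142.2 and 235.3 against 565.6, 639.8 and 821.9. Both were separated without overlap. KIF23, the motor of the central spindle, had 61.8, 90.5 and 127.6 against 514.8, 607.2 and 809.5. KIF2C, which takes microtubules apart at kinetochores, had 81.2, 108.1 and 138.5 against 321.6, 401.9 and 508.9. For the kinetochore proteins CENPF and NUF2 the plasmid and vector arrays reached at most 210.5 and 190.1, and the siRNA arrays were at least 511.7 and 536.7.

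TOP2A, the topoisomerase that untangles sister chromatids, had 151.3, 225.8 and 290.2 on plasmid and vector arrays against 898.5, 958.5 and 1138 on siRNA arrays. NCAPD2, a condensin I subunit, had 218.6, 325.3 and 462.4 against 684.1, 783.0 and 932.3. Of these 2 genes, NCAPD2 had the narrower gap between the families of arrays. CDC20, the activator of the anaphase-promoting complex, had 90.2, 114.7 and 167.6 against 395.5, 448.3 and 691.2. Separase (ESPL1), the protease that cuts cohesin at anaphase, had 88.8, 99.7 and 109.7 against 230.6, 261.2 and 382.3. At the spindle, ASPM had 82.5, 127.2 and 247.4 against 514.9, 696.1 and 1014, and PRC1, which bundles midzone microtubules, had 118.1, 148.0 and 221.6 against 432.4, 472.9 and 595.8. Over all members the largest differences between vectors and control siRNA were those of CDK1 (-2.90), DLGAP5 (-2.86) and KIF20A (-2.80), and the smallest were those of CDC25C (-0.70), INCENP (-0.71) and AURKB (-0.96). On the vector 1 array CDK1 (35.27), KIF15 (37.57) and SPC25 (29.74) lay under the array's lower quartile of 38.56, so that for these 3 genes the sizes and their rank are uncertain.

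After EZH2 siRNA the mitosis genes were lower by a small amount nearly throughout. All 48 members had a log2 difference below 0, against 51.8% of 14466 genes tested, and the median was -0.23 over the members and -0.00 over all genes. By limma with Benjamini-Hochberg adjustment over all genes, 3 of 48 members fell and 0 rose. Of all genes tested, 0.567% fell and 0.373% rose. At an unadjusted p under 0.05, 38 members were lower, against 10.1% of all genes. Both EZH2 siRNA arrays lay below both control arrays in 42 of 48 members, against 20.8% of all genes.

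The kinesin KIF15, which helps to keep spindle poles apart, had a signal of 140.2 and 143.2 with EZH2 siRNA against 208.2 and 197.2 with control siRNA. These arrays did not overlap, and KIF15 fell by 0.52 on the log2 scale (SE 0.092, limma adjusted p = 0.0341). CCNA2 had 456.2 and 471.5 with EZH2 siRNA against 604.4 and 613.2 with control, and fell by 0.39 (SE 0.081, limma adjusted p = 0.0473). BUB1 had 562.7 and 539.5 against 767.7 and 645.9, and fell by 0.35 (SE 0.073, limma adjusted p = 0.0473). In each of the 3 genes both siRNA arrays were below both controls. The 3 calls depend on the fit. Without the filter on dim genes, with array weights or without the pair as a block, 0 members were called. Without the filter or with array weights 0 of all genes fell, and without the block 14 did. Leaving out an array of 1 pair left the other pair alone, as 1 array against 1. The members' median was then -0.31 for pair 1 alone and -0.17 for pair 2 alone.

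Within the cyclin-CDK1 group the median difference was -0.18. CCNB1, the mitotic cyclin B1, had 276.4 and 365.6 with EZH2 siRNA against 504.3 and 417.6 with control, a difference of -0.53 (limma adjusted p = 0.0556). Its siRNA arrays were both below its controls, and its value is the lowest of the 48. The other members of that group ranged down to CDC25C, the phosphatase that activates CDK1, at -0.02, with 113.8 and 126.4 against 128.0 and 115.2. The arrays of CDC25C overlapped. In the checkpoint group the median was -0.21, and BUB3 at -0.06 was closest to 0, with 626.2 and 633.7 against 607.5 and 712.1.

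The 9 mitotic kinases and passenger proteins had a median of -0.27, and 7 of them were lower at an unadjusted p under 0.05, with 0 called. PLK1, the kinase that drives centrosome maturation and mitotic exit, had 555.2 and 619.2 with EZH2 siRNA against 968.8 and 659.3 with control, a difference of -0.45 (limma adjusted p = 0.104). Its difference rests mainly on the high first control. PLK4, which licenses centriole duplication, had 317.3 and 347.4 against 413.3 and 448.0, a difference of -0.37 (limma adjusted p = 0.0539), with about the same gap in both pairs. The 7 kinesins had a median of -0.26 and the 5 kinetochore genes of -0.27. SPC25, a subunit of the NDC80 complex that grips microtubules, had 124.1 and 98.6 against 154.1 and 159.0, a difference of -0.50 (limma adjusted p = 0.0556).

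All 7 condensin and chromosome structure genes lay in a narrow range of -0.29 to -0.19 with a median of -0.23, and all 7 were lower at an unadjusted p under 0.05. The anaphase genes CDC20, UBE2C and ESPL1 had a median of -0.31. CDC20 had 395.5 and 549.9 with EZH2 siRNA against 691.2 and 531.4 with control, so that its second siRNA array was above its second control. Spindle and cytokinesis genes had a median of -0.18, and HMMR, a spindle assembly protein, stood at -0.00 with 301.5 and 297.7 against 277.7 and 324.4. HMMR, CDC25C and BUB3 were the 3 members closest to 0.

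The titles tie each EZH2 siRNA array to a control array, and the pairs differed in size. In pair 1, 46 of 48 members were below 0 (all genes 58.1%) with a median of -0.31 (all genes -0.03). In pair 2, 45 of 48 were below 0 (all genes 46.3%) with a median of -0.17 (all genes 0.01). In both pairs 43 members were below 0, and 35 were lower in pair 1 than in pair 2. The shares of all genes for these last counts were not taken, and all genes together also stood lower in pair 1. The size of the gap between pairs differed from gene to gene. CDC20 differed by -0.81 in pair 1 and 0.05 in pair 2, PLK1 by -0.80 and -0.09, CCNB1 by -0.87 and -0.19, and KIF20A by -0.52 and -0.01. KIF15 (-0.57 and -0.46), CCNA2 (-0.41 and -0.38), PLK4 (-0.38 and -0.37) and UBE2C (-0.34 and -0.27) stood at like values in both. SPC25 (-0.31 and -0.69) and TTK (-0.06 and -0.36) were lower in pair 2. By role, the median of the anaphase genes was -0.48 in pair 1 and -0.07 in pair 2, whereas that of the checkpoint genes was -0.20 and -0.26.

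**Figure D2:**
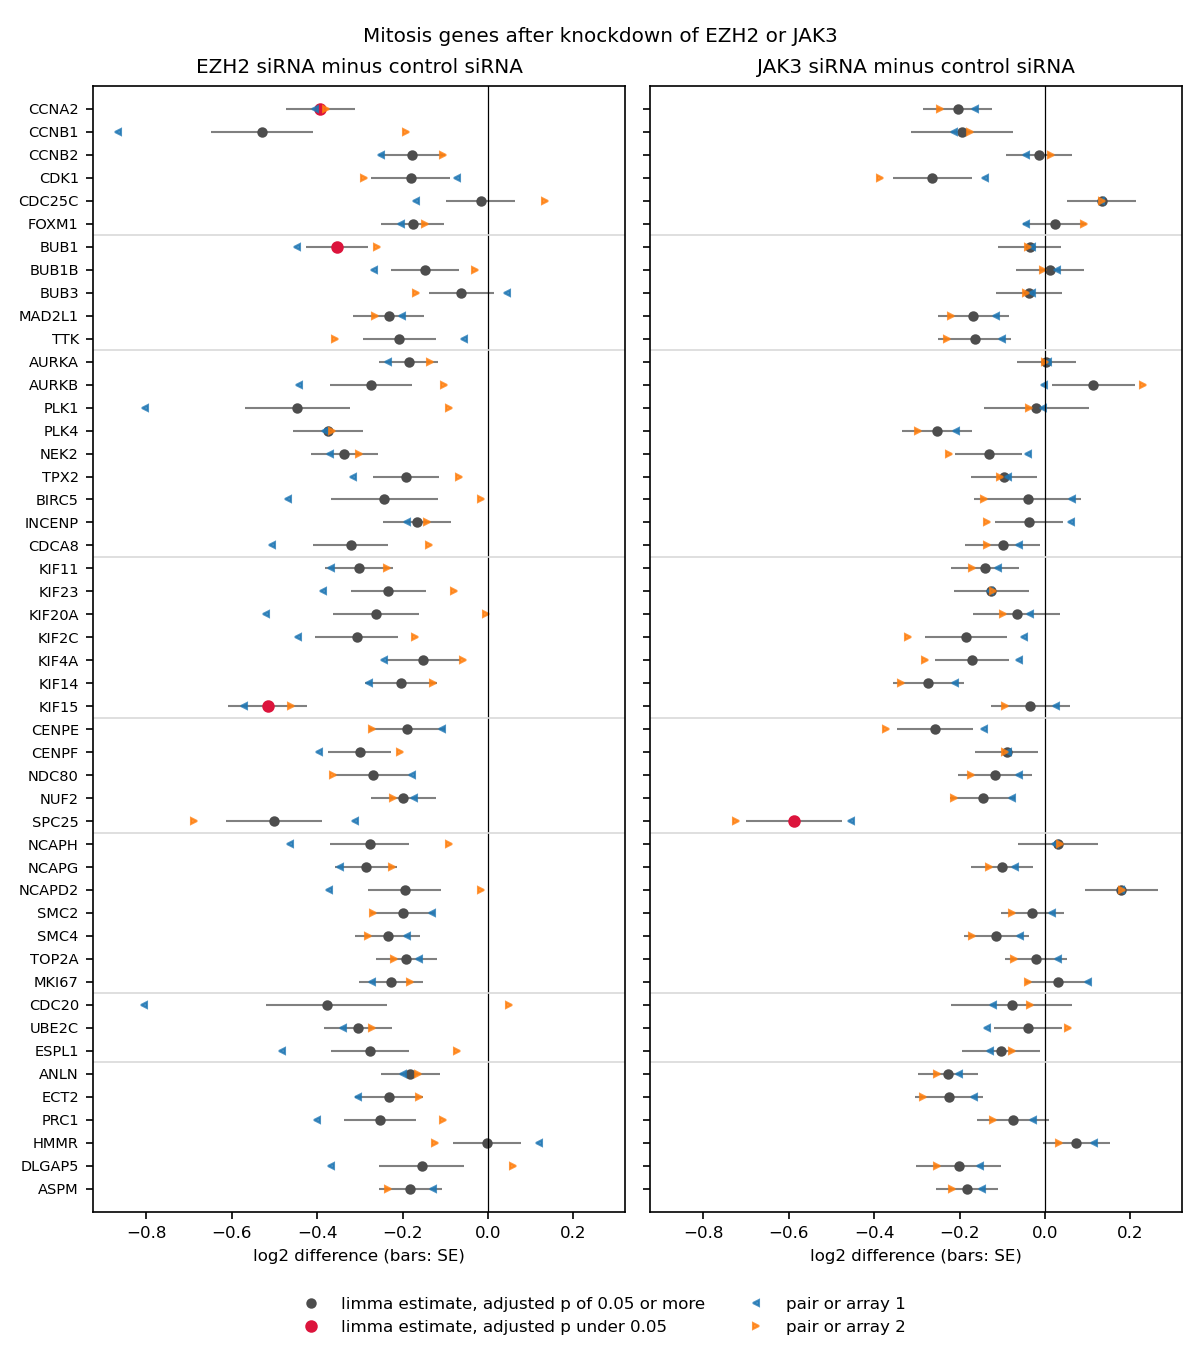
Log2 difference of each member after EZH2 siRNA or JAK3 siRNA, against its own control siRNA, with error bars of 1 SE from limma. EZH2 siRNA values lie below 0 for 48 of 48 members and JAK3 siRNA values for 39 of 48.

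The same arm held 117 other measured mitosis genes, listed by role. Of these 7 fell and 0 rose, and 103 were below 0, with a median of -0.17. As for the members, 0 of these calls were left without the filter or with array weights, where 0 of all genes fell. The 7 were SKA3 (-0.49, limma adjusted p = 0.0275), OIP5 (-0.40, 0.0341), UBE2S (-0.43, 0.0444), KNSTRN (-0.41, 0.0444), TACC3 (-0.40, 0.0486), ARHGAP11A (-0.39, 0.0486) and CDCA3 (-0.39, 0.0496). SKA3 helps kinetochores hold microtubule ends, OIP5 helps to load CENPA, UBE2S extends ubiquitin chains for the anaphase-promoting complex, and TACC3 stabilises spindle fibres. Natural killer markers stood the other way in this comparison, with 10 of 13 tested above 0, a median of 0.17 and 0 called. The summed signal of the 15 markers was 11320 to 11780 with EZH2 siRNA and 7521 to 10800 with its control. Their part in the result was not tested.

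After JAK3 siRNA 1 of the 48 mitosis genes was called. By limma 1 member fell, against 0.76% of all genes tested, and 0 rose, against 0.622%. Of the 48 members 39 were below 0, against 54.2% of all genes, with a median of -0.10 over the members and -0.01 over all genes. At an unadjusted p under 0.05, 9 were lower and 0 higher, against 7.02% and 5.39% of all genes. Both JAK3 siRNA arrays lay below both control arrays in 28 members, against 27.1% of all genes, and above both in 3, against 21.2%.

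SPC25 was the member that fell. Its signal was 93.8 and 77.8 with JAK3 siRNA against 139.1 and 118.6 with control siRNA, without overlap. It fell by 0.59 on the log2 scale (SE 0.113, limma adjusted p = 0.0235). The call was lost when any 1 of the 4 arrays of the arm was left out, with limma adjusted p of 0.0515 to 0.337. On the plasmid and vector arrays SPC25 had 29.7 to 36.1, near the lower quartile of those arrays (33.74 to 38.56), so that a further fall there could not have been read.

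**Figure D3:**
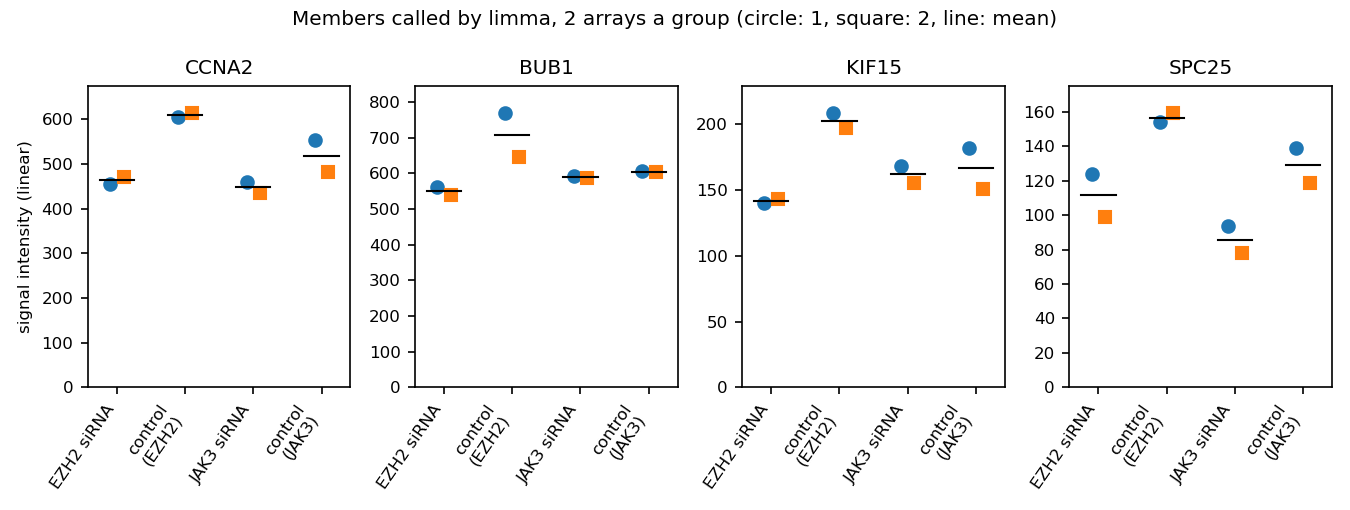
Signal of KIF15, CCNA2, BUB1 and SPC25 on each siRNA array, 2 arrays per group, with a line at the group mean. KIF15, CCNA2 and BUB1 fell after EZH2 siRNA and SPC25 after JAK3 siRNA.

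The next largest falls in size did not pass the test. KIF14, a kinesin of cytokinesis, had 263.1 and 241.2 with JAK3 siRNA against 323.2 and 286.8 with control (-0.27, limma adjusted p = 0.165). CDK1 had 283.4 and 239.1 against 323.5 and 301.9 (-0.26, 0.239), and CENPE, a motor that moves chromosomes to the spindle equator, had 307.5 and 262.4 against 352.3 and 327.6 (-0.26, 0.227). All 3 were without overlap between siRNA and control arrays. At the other end NCAPD2 had 782.6 and 783.4 against 699.8 and 684.1 (0.18, limma adjusted p = 0.435), CDC25C had 104.2 and 104.5 against 95.1 and 95.4 (0.13), and AURKB, the passenger complex kinase, had 264.1 and 310.2 against 265.5 and 263.7 (0.11). The AURKB value came from 1 array, the second, while NCAPD2 and CDC25C were above both controls on both arrays.

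By role, the medians after JAK3 siRNA ran from -0.02 for condensin and chromosome structure to -0.19 for spindle and cytokinesis. All 7 kinesins and all 5 kinetochore genes were below 0, with medians of -0.14 and -0.15. Array by array, the members' median against the mean of the controls was -0.06 on the first and -0.13 on the second JAK3 siRNA array. Below 0 were 36 and 40 of 48 members, against 53.8% and 53.2% of all genes, and 32 members were below 0 on both. Of the 117 other mitosis genes 0 were called by limma, 9 were lower and 3 higher at an unadjusted p under 0.05, and 78 were below 0 with a median of -0.03. The smallest p among them belonged to FBXO5, an inhibitor of the anaphase-promoting complex (-0.28, adjusted p = 0.0855), WEE1, the kinase that restrains CDK1 (0.28, 0.11), and PDS5B, a cohesin factor (-0.31, 0.11).

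The difference between the knockdowns was tested directly, as JAK3 siRNA effect minus EZH2 siRNA effect. By limma 0 of 48 members differed, against 0.138% of all genes higher and 0.228% lower, and 8 members were higher at an unadjusted p under 0.05 (all genes 4.27%). The value was above 0 in 40 of 48 members, against 50.1% of all genes, with a median of 0.16 over the members and 0.00 over all genes. KIF15 had the highest value at 0.48 (SE 0.131, limma adjusted p = 0.209), followed by PLK1 at 0.43 (0.528) and AURKB at 0.39 (0.409). KIF15 had 168.6 and 155.2 with JAK3 siRNA against 182.1 and 150.8 with control, which overlap. SPC25 (-0.09), CDK1 (-0.08) and KIF14 (-0.07) had the lowest values. All 9 kinases and passenger proteins and all 7 condensin and chromosome structure genes were above 0, with medians of 0.20 and 0.19, whereas spindle and cytokinesis genes had a median of 0.00. Of the other mitosis genes 0 of 117 differed, and the 3 with the smallest p were OIP5 (0.48, adjusted p = 0.0801), SPC24 (0.40, 0.166) and SKA3 (0.39, 0.225).

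The control siRNA arrays of the arms did not have the same level of mitosis transcripts. Controls of the EZH2 arm lay above those of the JAK3 arm on average in 48 of 48 members, with a median of 0.34 (all genes -0.01). In 43 members both EZH2-arm controls were above both JAK3-arm controls, against 17.7% of all genes. That median was larger in size than the -0.23 found after EZH2 siRNA. It was widest for ASPM (0.68), CCNB1 (0.63) and PLK1 (0.63), and narrowest for CDK1 (0.08), HMMR (0.09) and PLK4 (0.10). PLK1, for example, had 968.8 and 659.3 in EZH2-arm controls against 520.9 and 510.6 in JAK3-arm controls. Set against the JAK3-arm controls, the EZH2 siRNA arrays were above both in 25 members, against 20.5% of all genes, and below both in 6, against 30.4%, so that the lower level after EZH2 siRNA is one relative to its own controls. Within the EZH2 arm, control 1 was above control 2 in 34 of 48 members, with a median of 0.10 over all 48. Within the JAK3 arm, control 1 was above control 2 in 39 of 48, with a median of 0.05. The shares of all genes for these counts were not taken.

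With full-length EZH2 plasmids no mitosis gene passed the test against vector. EZH2 itself, with a log2 difference of 1.85, did not pass it either (limma adjusted p = 0.99998). A lack of calls in this fit therefore does not show that the members were unchanged. Over 6 plasmid and 2 vector arrays, 0 of 47 members tested were called by limma (0% of 14410 genes), 0 had an unadjusted p under 0.05, and 10 of all genes (0.0694%) did. The median was -0.03 over the members and 0.01 over all genes, with 28 members below 0 (all genes 46.4%) and 19 above. SPC25 was too dim for this test. In 0 of 47 members did all 6 plasmid arrays lie below both vectors (all genes 0.479%) or above both (0.271%). Of the 115 other mitosis genes tested 0 were called, and TRIP13 had the smallest p (-0.27, unadjusted p = 0.077).

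The members furthest from 0 show how wide the spread was. ANLN, a scaffold of the contractile ring, had 39.2 to 63.8 with full-length plasmids against 47.7 and 82.8 with vector, a difference of -0.31 (SE 0.241). KIF23 had 67.7 to 115.6 against 90.5 and 127.6 (-0.25), and NEK2, a centrosome kinase, had 63.6 to 105.6 against 102.7 and 96.7 (-0.24). At the other end BUB3 had 189.4 to 316.9 against 141.6 and 322.3 (0.25), SMC4, a condensin ATPase, had 148.1 to 249.3 against 119.8 and 227.8 (0.24), and CCNB2, cyclin B2, had 77.0 to 144.5 against 62.3 and 146.8 (0.17). In BUB3 and CCNB2 every plasmid array lay between the vectors. The vectors themselves differed, since vector 2 was above vector 1 in 42 of 47 members, against 51.7% of all genes. The median was 0.61 over the members and 0.05 over all genes.

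Against the vector of its own set, each plasmid array is 1 array against 1, with no test. In set 1 the members' median was -0.06 with 29 of 47 below 0 for the array titled Y244D, 0.40 with 3 below 0 for Y244A, and -0.02 with 25 below 0 for WT. In set 2 it was -0.09 with 34 below 0 for the array titled Y244D, -0.50 with 47 below 0 for Y244A, and 0.09 with 14 below 0 for WT. Over all genes these medians lay between -0.06 and 0.06. In the same order, 46.1%, 45.9% and 44.4% of all genes were below 0 in set 1. In set 2 the shares were 56.7%, 54.9% and 59.2%. All 3 plasmid arrays were above vector in set 1 and all 3 below it in set 2 in 3 of 47 members (BUB3, CCNB2 and NCAPD2), against 19.6% of all genes. The arrays titled Y244A thus stood furthest from their vectors in both sets and in opposite directions. In set 1 it was highest for BUB3 (1.12), CCNB2 (1.08) and SMC4 (0.99), and in set 2 lowest for NUF2 (-0.91), BUB1 (-0.83) and HMMR (-0.82).

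**Figure D4:**
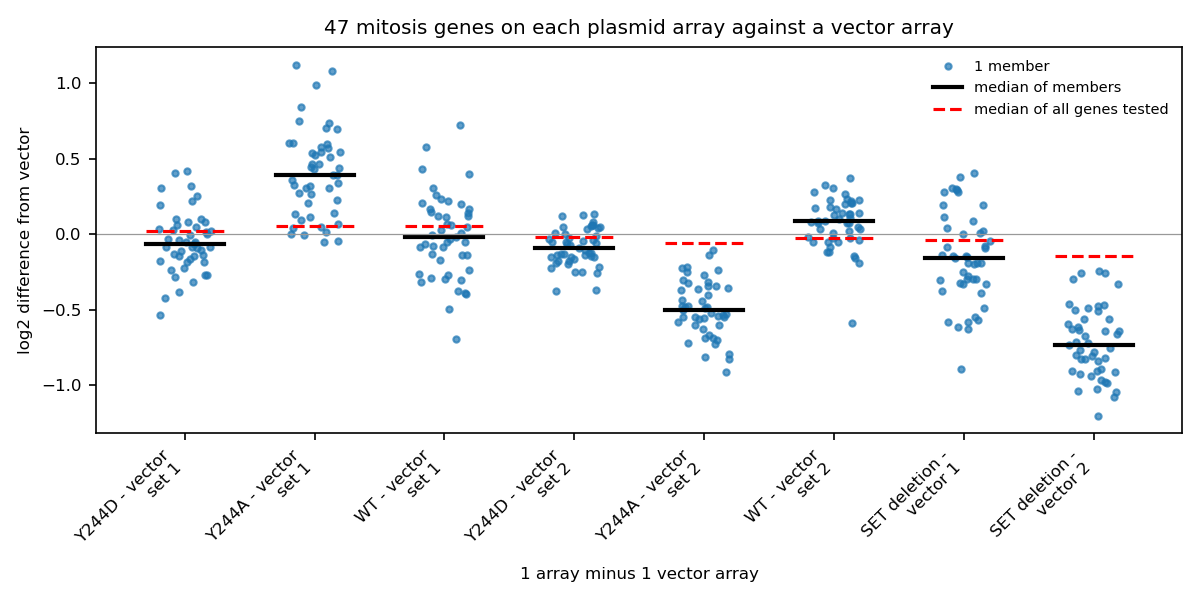
Log2 difference of each member from vector, for each full-length EZH2 plasmid array against the vector array of its set and for the SET deletion array against each vector array. Points are members and bars are medians, and the arrays titled Y244A lie above 0 in set 1 (median 0.40) and below 0 in set 2 (median -0.50).

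Signal distributions also differed in width between these arrays, by the interquartile range of log2 signal. The 4 widest (2.034 to 2.183) had a members' median signal of 113.3 to 134.1, and the 5 narrowest (1.79 to 1.986) had 78.8 to 93.1, with the narrowest array the highest of these 5. The median signal of the members and the interquartile range of log2 signal were 113.3 and 2.034 for the array titled Y244A in set 1, against 93.1 and 1.79 for vector 1. They were 88.04 and 1.986 for the array titled Y244A in set 2, against 130.6 and 2.183 for vector 2. The SET deletion array had 78.8 and 1.858. The part of the array width in these differences was not tested array by array, and 0 members were called in the fit of full-length plasmids with it as a covariate or without. With the covariate the members' median was -0.10 with 35 below 0, against -0.03 with 28 below 0 without it, and 2 were lower at an unadjusted p under 0.05.

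**Figure D5:**
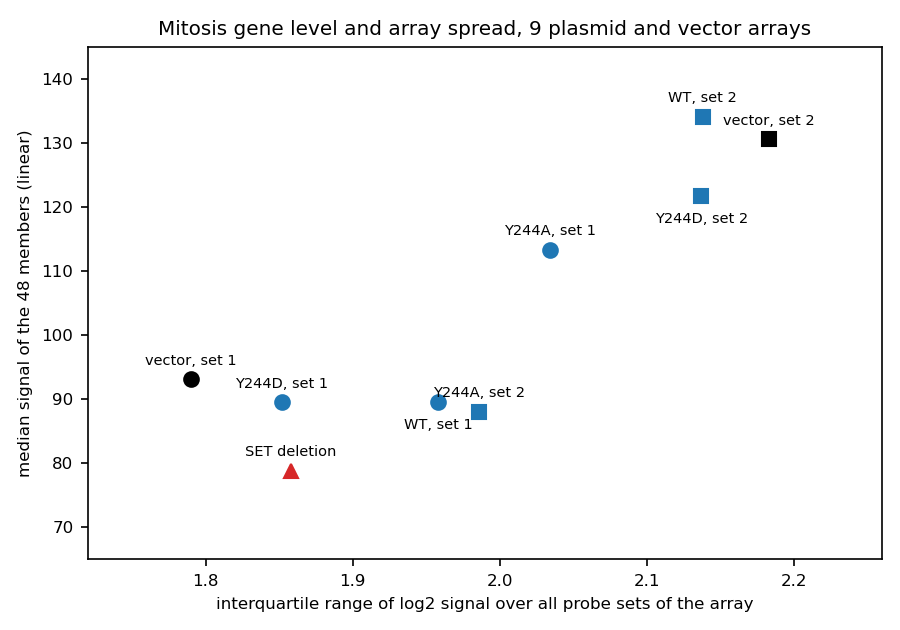
Median signal of the members (vertical axis) against the interquartile range of log2 signal of the array (horizontal axis) for the 9 plasmid and vector arrays. Vector 1 lies at 1.79 and 93.1, vector 2 at 2.183 and 130.6, and the SET deletion array at 1.858 and 78.8.

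The array with the SET deletion of EZH2 had the lowest members' median signal of the 17 arrays. With 1 array there is no test. Its natural killer marker sum, 4402, was also the lowest of the 17, against 5252 and 5567 with vector, and the part of this in the result was not tested. The array lay below the mean of the vectors in 47 of 47 members, against 60.0% of 14400 genes, with a median of -0.44 (all genes -0.05). It lay below both vectors in 32 members, against 19.3% of all genes, and above both in 0 (7.6%). Against vector 1 alone the median was -0.16 with 32 members below 0 (all genes -0.04 and 54.0%). Against vector 2 alone it was -0.73 with 47 below 0 (all genes -0.14 and 57.7%). The size thus depends on which vector is its counterpart. It was below all 6 full-length plasmid arrays in 28 members, against 17.7% of all genes, with a median of -0.40 against their mean.

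NCAPG, a condensin I subunit, had 85.8 on the SET deletion array against 128.1 and 197.0 with vector, a difference of -0.89 from the mean of the vectors. NCAPH, the kleisin of the same complex, had 85.2 against 157.8 and 143.5 (-0.82), and PLK1 had 74.8 against 115.4 and 147.2 (-0.80). Each of the 3 was also below all 6 full-length plasmid arrays. KIF23 (-0.80), TTK, a checkpoint kinase (-0.68), BUB1 (-0.68) and TOP2A (-0.66) followed. The smallest differences were those of AURKA (-0.11), ECT2, an activator of RhoA at the cleavage site (-0.16), and SMC4 (-0.16). In 10 members the SET deletion array was at least 1.5 times lower than the mean of the vectors, as it was in 1.01% of all genes. Against vector 1, the medians by role, kinetochore genes aside, ran from -0.32 for the kinases and passenger proteins to 0.00 for spindle and cytokinesis genes. Of the kinetochore genes SPC25 was too dim for this comparison. The others were CENPE (0.30), CENPF (0.04), NUF2 (-0.19) and NDC80 (-0.61). NDC80, also among the 10 members given above, had 34.03 on the SET deletion array. That is under the array's lower quartile of 37.51, so that its size is uncertain. Of the 115 other mitosis genes 89 were below the mean of the vectors with a median of -0.15, and 41 were below both vectors.

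Members with CHR letters in the promoter did not have a larger median difference than members without. After EZH2 siRNA the median was -0.23 in the 32 members with CHR letters and -0.28 in the 9 without, and after JAK3 siRNA -0.10 and -0.13. With CCAAT letters (29 members) and without (12) the medians were -0.25 and -0.22 after EZH2 siRNA, and -0.10 and -0.12 after JAK3 siRNA. Of the 4 called members, BUB1 and SPC25 hold both motifs in their windows, KIF15 only CHR and CCNA2 only CCAAT letters.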

How the data were processed

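RNA of NKYS cells on 17 arrays was labelled with Nugen kits, per the labels' protocols. The deposited values are linear signal intensities; their normalization and probe summary are not given in the sources used here. Intensities were used as deposited, after log2. Of 28869 probe sets, 19310 have 1 gene symbol in the platform annotation, 1752 several and 7807 none. The probe set with the highest mean represented a gene where several did (685 genes, among them BIRC5). RefSeq identifiers (GRCh38.p14) changed 0 symbols, and 0 pairs of arrays were identical.

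Genes under the 30th percentile of mean log2 signal over the arrays of a fit were left out, which kept 48 members in the siRNA fit and 47 in the plasmid fit. Two-sided tests were run in limma 3.58.1 (lmFit and eBayes) under R 4.3.3, with tables read by the data.table package (version 1.17.8). P-values were adjusted over all genes by Benjamini-Hochberg, with calls under 0.05. All 8 siRNA arrays entered 1 fit with 3 residual degrees of freedom. Titles tie EZH2 siRNA arrays to controls, and that pair was a block. Deviations of paired arrays correlated at -0.086 in the EZH2 arm and at 0.15 in the JAK3 arm, where only numbers are shared. For the plasmid arrays, deviations of the vector and of the full-length mean in set 1 correlated at 0.84. The main plasmid fit nevertheless had no block for the set. With the set as a replicate block, 0 members were called.

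The members and lists were chosen with earlier results of these data known. All members could be named; signals are given for those called, the 2 with the highest mean per role, and the 3 highest and 3 lowest differences per comparison. Other mitosis genes are named where called, otherwise the 3 with the smallest p. Alternatives were other normalizations, filters, probe set rules, weights, blocks and leaving out each array. The interquartile range as a covariate was added after seeing the data.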

Additional observations from a re-analysis of the deposited data

Results flagged for a closer look

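In 3 of 47 members tested the 3 full-length plasmid arrays of set 1 were all above their vector and the 3 of set 2 all below theirs, against 19.6% of all genes. Set 1 mean minus set 2 mean was 1.005 on the log2 scale for BUB3, 0.9646 for CCNB2 and 0.5123 for NCAPD2. Vector 2 minus vector 1 was 1.19, 1.24 and 1.08 for these genes, and each of these differences includes that between the vectors. SPC25 had the same signs with 0.2608, but its signal lay under the lower quartile on 7 of the 9 plasmid and vector arrays, so that this value gives no size. The difference was not tested, and the constructs of set 2 are not settled by the labels. The array titled Y244A stood above its vector in set 1, with a members' median of 0.3953, and below it in set 2, with -0.5018, also untested. Among 48 members over the 6 full-length arrays, 0 had an array far from the others by Dixon's ratio, where chance would flag about 1 group in 20.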

How the results depend on the processing

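The medians of the members kept their direction in all 3 siRNA comparisons, under every alternative tried. Counts of calls did not hold. For EZH2 siRNA 3 members fell in the main fit, where 82 of all genes did. The count was 1 with quantile normalization (26 of all genes fell) and 7 with arrays centred on their medians (161). It was 5 with the 4 arrays of the arm alone (96). It was 0 without a filter, with array weights and with the interquartile range as a covariate. It was also 0 with no replicate block and with a replicate block in both arms. With no block 14 of all genes fell, and in each of the other fits with a count of 0, 0 did. Leaving out arrays in turn gave 0 to 21, with 21 without the control or the siRNA array of pair 2 and 0 without either array of pair 1, where the lone array left is assumed to vary like the other groups. For JAK3 siRNA 1 member fell in the main fit, where 110 of all genes did. The count was 0 without a filter (57 of all genes fell) and 3 with array weights (375). Leaving out 1 array of the JAK3 arm left a group of 1 array, assumed to vary like the other groups. The members' median then ran from -0.13 to -0.06. For the difference between knockdowns (0 called) the members' median ran from 0.10 to 0.23 when leaving out arrays. The plasmid median of -0.03 was -0.2787 without vector 1 and 0.2905 without vector 2, and 0 members were called there with the set as a replicate block. The SET deletion median of -0.44 was -0.7323 against vector 2 alone. Why these values moved was not tested, beyond the fewer arrays or other genes that a setting leaves.

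Signs of single uncalled members near 0 also turned. HMMR after EZH2 siRNA was 0.03465 with quantile normalization and 0.04212 with the covariate. When leaving out arrays it ran between -0.1241 and 0.1189, BUB3 between -0.1683 and 0.04366, and CDC25C between -0.1695 and 0.134. AURKB after JAK3 siRNA ran between -0.002947 and 0.2296. In the difference between knockdowns SPC25 ran between -0.2758 and 0.1006, CDK1 between -0.2056 and 0.0399, and KIF14 between -0.1551 and 0.01682. With full-length plasmids ANLN ran between -0.7105 and 0.08467, CCNB2 between -0.4449 and 0.791, SMC4 between -0.2254 and 0.7021, and BUB3 between -0.3396 and 0.847. In set 2 alone CCNB2 was -0.3093, SMC4 -0.09024 and BUB3 -0.249. Signals near the lower quartile, as for SPC25 on the plasmid arrays, limit what can be read.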
